A study of Mus musculus with 3 samples.

Results

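Small nucleolar RNAs (snoRNAs) and small Cajal body-specific RNAs (scaRNAs) were examined in chromatin RNA of mouse macrophages. Members were selected on expected counts: a gene was taken where every transcript it had was annotated as snoRNA or scaRNA and where its expected counts in the gene tables summed to 10 or more over the 3 libraries. This left 71 of 1558 annotated snoRNA and scaRNA genes, or 4.56%. Of these members 62 carried the snoRNA biotype and 9 the scaRNA biotype, and each had 1 annotated transcript. Because expected counts chose the members, their levels in counts and TPM (transcripts per 1000000: a count divided by an effective length and scaled so that the table sums to a fixed total) are given as a description with no test.

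The cells were macrophages grown from bone marrow of C57BL/6J mice. All 3 libraries belonged to 1 group: cells were treated with 100 ng/ml Lipid A for 12 h, kept for 12 h after it was washed out, and exposed again to 100 ng/ml Lipid A for 10 min. Total RNA sequencing was run on the chromatin fraction, with labelled RNA inputs of 1 ug (replicate 1), 250 ng (replicate 2) and 500 ng (replicate 3), and a labelled size range of 250 to 400 with no unit. No untreated or other control group was analysed here, so a level cannot be tied to Lipid A, and the libraries were separate biosamples that shared 1 donor identifier. The labels gave neither the sex nor the age of the mice, and they did not say which cells other than macrophages the cultures held. In bulk RNA, fewer cells with a transcript and less transcript per cell cannot be told apart.

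Expected counts over all genes were 13538619, 19949221 and 18224480 in replicates 1, 2 and 3. The labelled cell type was checked with marker genes: 8 of 8 macrophage markers reached 1 TPM in every library, and 1 of 12 markers of other marrow or tissue cells did, namely the endothelial and leukocyte adhesion gene Pecam1 at 1.70 ± 0.26 TPM (SD, n = 3). The NK cell gene Ncr1 was listed at 0 in all 3 libraries. These are values of the gene tables. In the second set of tables, described below, 6 of the 12 reached 10 summed counts. Among them Col1a1 held 563, at 0.92, 1.57 and 1.41 TPM in replicates 1, 2 and 3.

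Most snoRNAs are guides. Box C/D RNAs, named for short conserved boxes near their ends, direct ribose methylation, and box H/ACA RNAs direct the conversion of uridine to pseudouridine, in both cases mainly on ribosomal RNA. A few, such as the U3 family (Rnu3a and Rnu3b genes in the mouse), Snord22, Snora73a and Snora73b, take part in cleavage of the ribosomal RNA precursor. The scaRNAs guide the same modifications on the small nuclear RNAs of the spliceosome and gather in Cajal bodies. In mammals most of these RNAs lie in introns of host genes and are trimmed out of the spliced intron, so they are made on chromatin with the host transcript.

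The 12 sequences below are those the results turn on, from GENCODE M21 transcripts on mm10 and written 5′ to 3′. The first 3 belong to members that were listed at 0 TPM in a library where they held 10 or more expected counts. The next 5 had the highest TPM in the gene tables besides Snord22. The last 4 are near-identical entries between which counts had to be divided. Capitals mark the boxes that were found for the class given to each RNA. For H/ACA these are an H box (ANANNA in the middle of the RNA, from 35 to 65% of its length) and ACA in the last 8 bases. For C/D they are a C box (NTGATGA in the first 25 bases) and CTGA, the D box, in the last 25 bases. Gm25776, marked as H/ACA, also holds CTGA in its last 25 bases, left in lower case.
Snord22: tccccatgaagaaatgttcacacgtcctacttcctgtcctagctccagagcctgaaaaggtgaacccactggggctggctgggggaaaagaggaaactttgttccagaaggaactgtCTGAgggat
Snora26: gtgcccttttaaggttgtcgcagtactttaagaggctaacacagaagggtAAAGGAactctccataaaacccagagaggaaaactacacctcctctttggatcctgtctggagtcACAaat
Gm24233: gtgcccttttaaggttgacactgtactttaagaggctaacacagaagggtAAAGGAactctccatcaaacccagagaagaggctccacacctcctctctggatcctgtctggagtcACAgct
Gm22988: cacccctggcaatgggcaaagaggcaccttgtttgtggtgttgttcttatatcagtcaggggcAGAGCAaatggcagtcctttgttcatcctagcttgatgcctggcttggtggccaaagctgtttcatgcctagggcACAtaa
Gm26447: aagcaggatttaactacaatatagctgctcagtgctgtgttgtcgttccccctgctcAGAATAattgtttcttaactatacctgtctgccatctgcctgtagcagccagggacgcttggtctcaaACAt
Snord15b: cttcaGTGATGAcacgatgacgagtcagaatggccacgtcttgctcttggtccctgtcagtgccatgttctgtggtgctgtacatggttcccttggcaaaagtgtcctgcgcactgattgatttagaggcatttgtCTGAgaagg
Gm25776: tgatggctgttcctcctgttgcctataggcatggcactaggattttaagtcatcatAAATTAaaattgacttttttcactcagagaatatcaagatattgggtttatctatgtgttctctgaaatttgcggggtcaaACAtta
Gm25835: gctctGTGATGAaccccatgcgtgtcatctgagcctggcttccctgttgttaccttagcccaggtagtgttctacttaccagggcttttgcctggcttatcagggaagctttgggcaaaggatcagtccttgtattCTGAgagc
Snora73a: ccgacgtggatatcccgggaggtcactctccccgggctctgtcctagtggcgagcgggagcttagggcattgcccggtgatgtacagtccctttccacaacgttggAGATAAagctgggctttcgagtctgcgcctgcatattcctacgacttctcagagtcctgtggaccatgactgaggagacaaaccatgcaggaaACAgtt
Snora73b: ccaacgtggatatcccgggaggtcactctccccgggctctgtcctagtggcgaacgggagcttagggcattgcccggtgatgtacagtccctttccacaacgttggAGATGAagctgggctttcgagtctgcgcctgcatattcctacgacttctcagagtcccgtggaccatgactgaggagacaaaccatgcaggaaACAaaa
Rnu3a, shorter entry: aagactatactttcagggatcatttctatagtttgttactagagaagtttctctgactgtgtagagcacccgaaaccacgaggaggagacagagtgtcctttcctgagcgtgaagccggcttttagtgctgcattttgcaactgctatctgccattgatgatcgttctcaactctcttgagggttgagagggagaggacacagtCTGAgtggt
Rnu3a, longer entry: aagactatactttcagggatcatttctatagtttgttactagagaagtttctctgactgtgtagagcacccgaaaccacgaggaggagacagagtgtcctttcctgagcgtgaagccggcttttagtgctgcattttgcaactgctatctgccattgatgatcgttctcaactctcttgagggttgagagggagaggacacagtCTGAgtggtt

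On mm10, Snord22 lies at chr19:8725866-8725991, plus strand, inside an exon of a transcript of the non-coding host Snhg1. Snora26 (chr5:74093530-74093650, plus strand) lies inside an exon of Dancr, and Gm24233 (chr12:59134072-59134193, plus strand) in an intron of Mia2. Gm22988 (chr11:69669635-69669778, minus strand) lies inside an exon of a retained-intron transcript of Eif4a1, a translation initiation helicase gene, whose intron also holds Gm25835 (chr11:69668852-69668995, minus strand). Gm26447 (chr16:23111301-23111429, plus strand) lies inside an exon of a retained-intron transcript of Eif4a2. Snord15b (chr7:99479563-99479707, minus strand) lies likewise in Rps3, a gene for a ribosomal protein of the small subunit, and Gm25776 (chr12:91573430-91573572, minus strand) in an intron of Gtf2a1. Snora73b (chr4:132352322-132352526, minus strand) and Snora73a (chr4:132352775-132352979, minus strand) lie in introns of Rcc1. Each is contained in 2 genes on that strand, and Rcc1 is the one with more expected counts. Both Rnu3a entries start at the same base (chr10:40258467-40258679, plus strand, and chr10:40258467-40258680, plus strand), where no gene on that strand contains them.

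Box motifs were searched on the annotated strand only, as RNA motifs. The C and D boxes were both present in 10 of 71 members (14.1%) and in 20.5% of all 1558 annotated genes. An H box and ACA were both present in 42 members (59.2%) and in 39.8% of all annotated genes, and 1 member held both pairs. These short motifs also match by composition, and a match is a description of the letters rather than of a working box. Of 16 members with a Snora symbol 14 held an H box and ACA, as did 25 of 31 members whose symbol gives no class. Of 14 members with a Snord or Rnu3 symbol 3 held both C and D boxes in these windows: Snord15b, Snord15a and Snord17. Snord22 held only a D box there. The rest were the 2 Rnu3a and 8 Rnu3b entries, which repeat near-identical sequences and had no C box in the first 25 bases. In the printed Rnu3a sequences NTGATGA lies further in, outside that window. The share of members with both boxes counts these U3 entries as lacking them. The median GC content of members was 50.7%, against 45.4% over all annotated genes.

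Members were long for this gene class. Their annotated lengths ran from 121 to 414 nt with a median of 144 nt, while the median over all annotated genes was 128 nt. The longest were Scarna2 (414 nt), Gm22009 (343 nt) and Scarna10 (325 nt), and the shortest were Snora26 (121 nt), Gm24233 (122 nt) and Gm22786 (122 nt). No gene of 120 nt or less was a member, although 601 of the annotated genes were that short, and only 4 of those 601 held any expected count at all. In the gene tables the effective length, the number of positions a fragment is taken to be able to start from, was 0 for every annotated snoRNA or scaRNA gene up to 122, 126 and 125 nt in replicates 1, 2 and 3.

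The second set of tables, with counts estimated straight from the reads (the read-based tables), had no such floor. There 368 annotated genes reached 10 summed counts, of which 67 were members and 301 were not, and 241 of the 301 were at 0 in the gene tables. Among the 601 genes of 120 nt or less, 120 reached 10 read-based counts. Gm24339, a snoRNA of 76 nt in an intron of Cep295, held 686, 865 and 704 read-based counts in replicates 1, 2 and 3 and 0 in each gene table. Snord21, a box C/D RNA of 94 nt in Rpl5, held 853, 394 and 527 read-based counts and 0 in each gene table. Both genes therefore held estimated counts in 1 quantification and were empty in the other. Whether those counts came from these RNAs or from RNA of their hosts was not tested. Where the effective length is 0, a 0 in the gene tables sets no upper limit on the RNA.

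**Figure D1:**
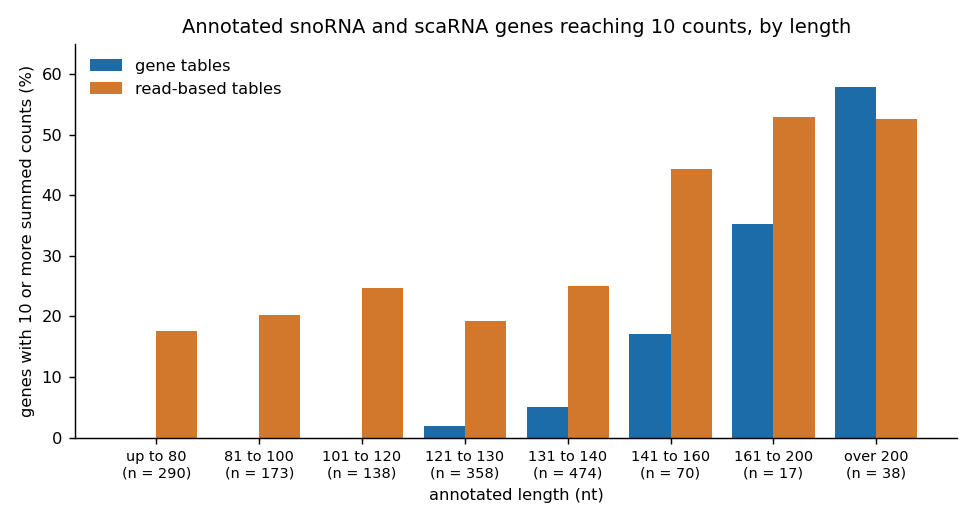
Percent of annotated snoRNA and scaRNA genes (y axis) with 10 or more counts summed over the 3 libraries, by annotated length in nt (x axis, number of genes in parentheses), for both kinds of table. In the gene tables the percent rises from 0 up to 120 nt to 57.9% over 200 nt, and in the read-based tables from 17.6% up to 80 nt to 52.6% over 200 nt. The class over 200 nt includes 8 near-identical Rnu3b entries, all of them members, of which 4 reached 10 read-based counts.

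By length, 1.96% of the 358 genes of 121 to 130 nt were members, 5.06% of the 474 genes of 131 to 140 nt, 17.1% of the 70 genes of 141 to 160 nt, 35.3% of the 17 genes of 161 to 200 nt and 57.9% of the 38 genes over 200 nt. The read-based tables gave 19.3%, 25.1%, 44.3%, 52.9% and 52.6% in the same classes. Up to 200 nt the read-based tables gave the higher percent in every class, and over 200 nt the gene tables did. Over 200 nt 22 of the 38 genes were members and 20 reached 10 read-based counts. The 22 include all 8 near-identical Rnu3b entries, of which only 4 reached 10 read-based counts. The order in that class therefore turns on repeated entries. The 38 genes over 200 nt held 114805 summed expected counts, and the 474 genes of 131 to 140 nt held 3132.

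**Figure D2:**
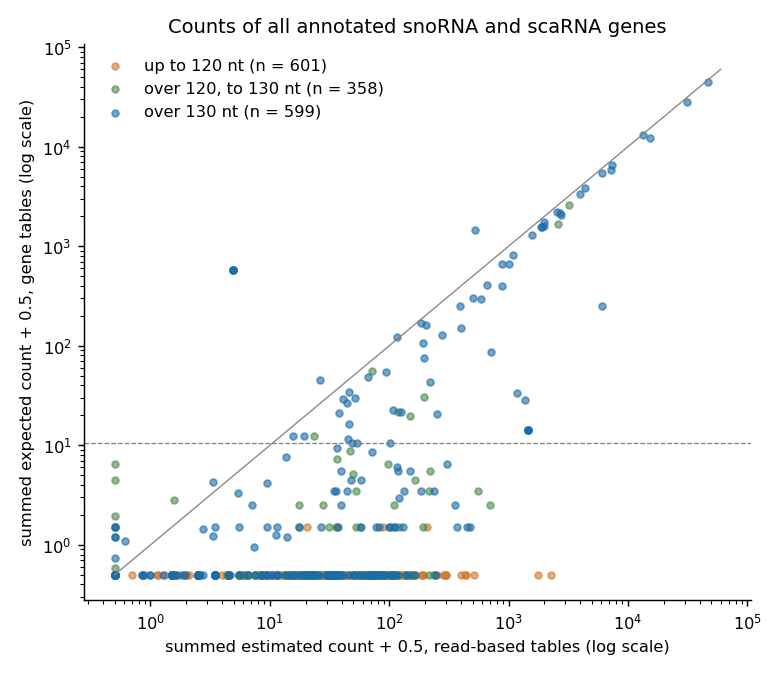
Summed count of each of the 1558 annotated snoRNA and scaRNA genes in the read-based tables (x axis) and in the gene tables (y axis), both with 0.5 added and on log scales, coloured by annotated length. The solid line marks equal counts and the dashed line the minimum of 10, and genes of 120 nt or less lie along the bottom of the plot at 0 or near it in the gene tables.

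Near the minimum of 10 the values were a handful of counts. Just inside were Gm22362 with 7, 0 and 3 expected counts, Snora17 with 5, 2 and 3, and Gm23639 with 3, 5 and 2 in replicates 1, 2 and 3. Just outside were the scaRNA gene Gm22767 with 2, 3 and 4, Snora61 with 1.85, 4.78 and 1.69, and Gm22270 with 2, 3 and 3. Mean expected counts were 1000 or more for 9 members, from 100 to under 1000 for 21, from 10 to under 100 for 19 and under 10 for 22.

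A few genes held most of the counts. Scarna10, a composite guide with boxes of both classes that is directed at the U5 small nuclear RNA, held 15776, 14320 and 14449 expected counts in replicates 1, 2 and 3. It is annotated as a snoRNA and lies partly in exons of Ncapd2, a condensin gene. Gm22009, an annotated scaRNA in an intron of the importin gene Kpna4, held 4810, 14342 and 9064. Gm22988, with an H box and ACA, held 6965, 3008 and 3013. These leading 3 took 59.9% ± 1.44 of all member counts (SD over 3 libraries). Scarna10 was alike in raw count in the 3 libraries, whereas Gm22009 was lowest and Gm22988 highest in replicate 1.

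Below them came Scarna2, a guide for the U2 small nuclear RNA that no annotated gene on its strand contains, with 1593, 6068 and 4588 expected counts. The scaRNA gene Gm25395, in an intron of the autophagy gene Atg16l1, held 1763, 2414 and 2367. Snord17, a box C/D RNA of 238 nt in an intron of Snx5, held 2323, 1467 and 2008. Of these, Scarna2 was lowest in replicate 1 by count and Snord17 lowest in replicate 2, and the 3 genes overlapped in their ranges. Snord15b, which guides ribose methylation of large-subunit ribosomal RNA, held 2647, 1315 and 1470. The 2 Rcc1 RNAs held 920, 1733 and 1155 (Snora73b) and 631, 1801 and 933 (Snora73a), and Gm26447 held 533, 1118 and 919. By raw count both Rcc1 RNAs and Gm26447 were highest in replicate 2 and lowest in replicate 1. Expected counts over all genes had that order too, so raw counts partly follow library size. With counts scaled to the library total (CPM), Snora73a and Gm26447 kept the order. Snora73b did not, at 68.0, 86.9 and 63.4 CPM in replicates 1, 2 and 3.

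**Figure D3:**
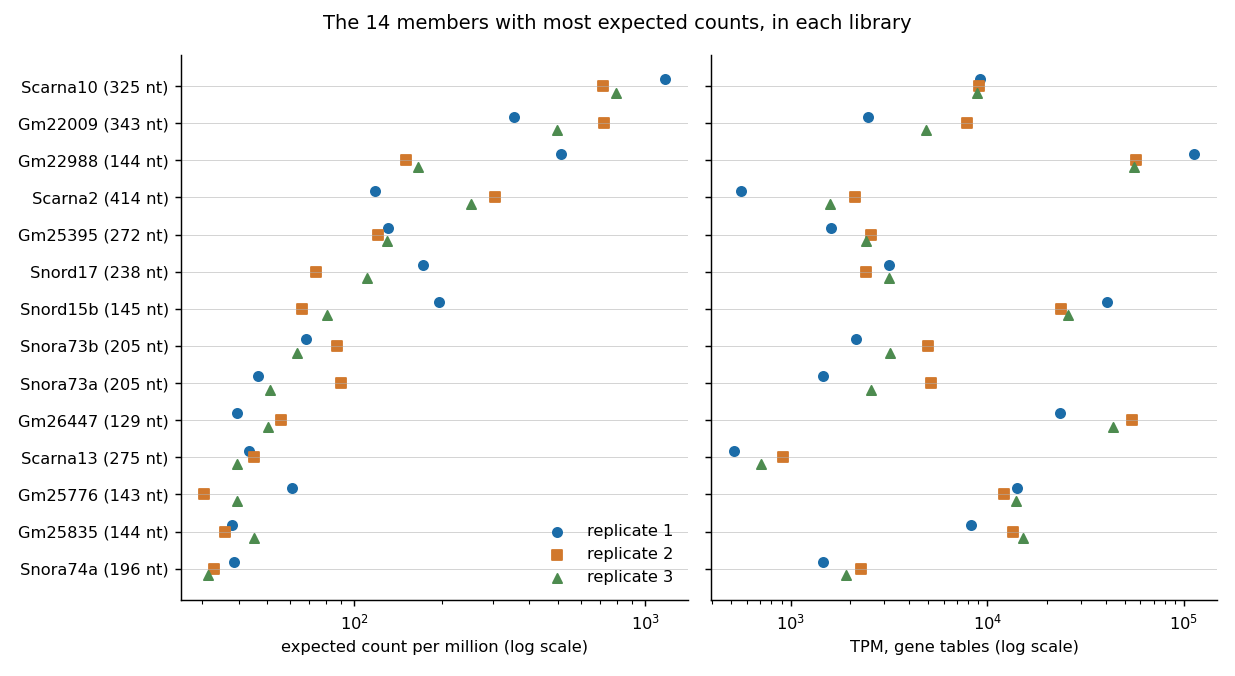
The 14 members with the highest mean expected count, with annotated length in nt on the y axis, in each of the 3 libraries. The left panel shows CPM (counts per 1000000) from expected counts and the right panel TPM of the gene tables, both on log scales. Scarna10 has the highest mean on the left, and the 144-nt Gm22988 is highest on the right in each library.

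Ranked by TPM, another set of genes came first. Gm22988 stood at 112975, 57098 and 55754 TPM in replicates 1, 2 and 3. Gm26447 stood at 23340, 54205 and 43733 TPM, and Snord15b at 40712, 23742 and 25859. All 3 were between 129 and 145 nt. Gm25776 stood at 14150, 12173 and 14052 TPM, and Gm25835 at 8305, 13554 and 15210. Scarna10, which had the most counts, stood at 9156, 9069 and 8882 TPM. Of the 10 members with the highest mean count, 4 were also among the 10 with the highest mean TPM, while 9 were among the 10 with the highest read-based count.

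The same counts gave very different TPM at different lengths. Gm26447 (129 nt) and Scarna13 (275 nt, a guide in an intron of the non-coding host Snhg10) had mean levels of 48.6 and 42.7 CPM (counts per 1000000 counts of the library) from expected counts, a ratio of 1.14. In TPM of the gene tables Gm26447 was 45.0-, 58.9- and 61.5-fold higher than Scarna13 in replicates 1, 2 and 3. In TPM of the read-based tables it was 5.18-, 6.60- and 6.48-fold higher. The gap between these genes thus lay in the TPM and not in the counts. Snord15b (145 nt) and Snord17 (238 nt) had a ratio of 0.963 in mean CPM, and Snord15b was 12.9-, 9.87- and 8.17-fold higher in TPM of the gene tables but 3.46-, 2.17- and 1.99-fold higher in TPM of the read-based tables.

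Within each library, TPM was the count divided by the effective length to within 1 constant. For members with 10 or more counts and an effective length above 0, that constant stayed between 99.7 and 100.3% of its median in every gene table. The TPM that 1 CPM gave therefore followed the effective length. Over members with a count and a TPM above 0 it spanned 162-, 138- and 176-fold in the gene tables of replicates 1, 2 and 3. In the read-based tables it spanned 12.4-, 11.6- and 10.8-fold. Its median over the 7 members of 121 to 130 nt was 593, 0 and 867 TPM in the gene tables of replicates 1, 2 and 3. There 3, 4 and 3 members had an effective length of 0 and entered as 0. For members over 200 nt the median was 25.8, 40.1 and 35.2 TPM. The read-based table of replicate 1 gave 63.3 and 18.9 TPM for these 2 length classes. Median effective lengths of the annotated genes of 131 to 140 nt were 2.18, 1.52 and 1.60 positions in the gene tables and 20.4, 21.8 and 23.1 in the read-based tables.

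**Figure D4:**
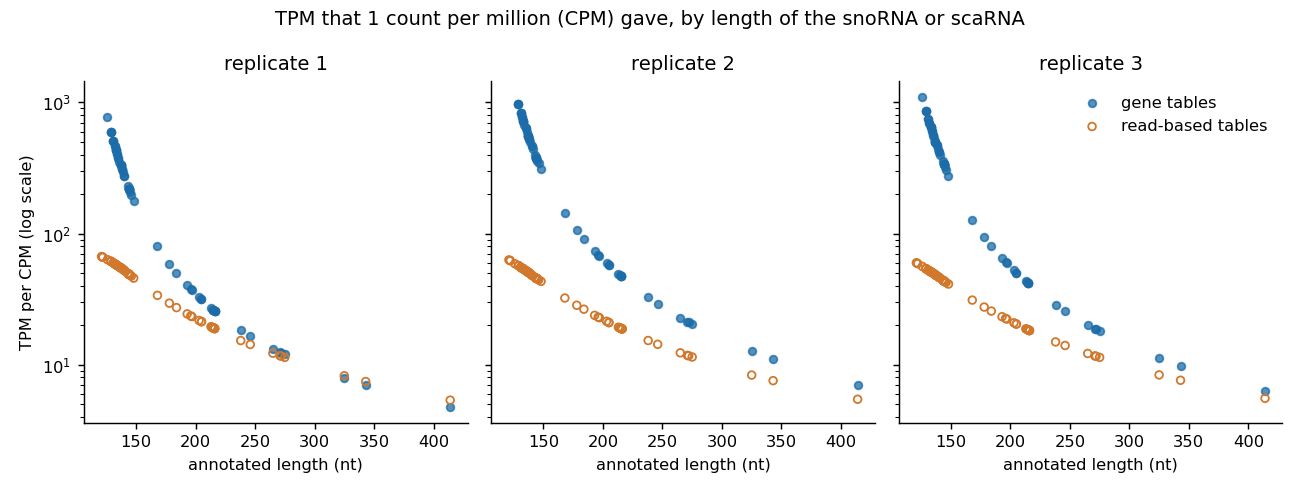
TPM given by 1 CPM (y axis, log scale) against annotated length in nt (x axis) for the members with a count and a TPM above 0, 1 panel per library, in the gene tables (filled) and the read-based tables (open). The gene tables rise steeply below 150 nt, to 768, 967 and 1109 TPM per CPM at the highest member in replicates 1, 2 and 3, and the 2 tables are closest over 300 nt.

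Effective lengths also differed between libraries. For Scarna10 they were 130.3, 93.2 and 99.0 positions in replicates 1, 2 and 3 in the gene tables. Its CPM was 1165, 718 and 793, while its TPM was 9036 ± 140 (SD, n = 3). An equal TPM thus stood beside unequal CPM for this gene.

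Members together held 28.3, 25.7 and 27.8% of all TPM in the gene tables of replicates 1, 2 and 3, or 27.3% ± 1.40 (SD, n = 3). They held 0.337, 0.285 and 0.265% of all expected counts. In the read-based tables their share of TPM was 6.03, 3.72 and 3.63%. The leading 3 members of each library held 55.5% ± 6.35 of the members' TPM: these were Gm22988, Gm26447 and Snord15b in replicates 1 and 2, and Gm22988, Gm26447 and Snord22 in replicate 3. The share of TPM in the gene tables varied by less than 3 percentage points between libraries, yet it was several times that of the read-based tables in each of them. With counts divided by annotated length in place of effective length the share was 3.06% ± 0.50, an alternative chosen after seeing the data.

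Of 71 members 60 had a higher mean TPM in the gene tables than in the read-based tables, although 64 had a higher mean count in the read-based tables. The median log2 ratio of gene-table over read-based TPM (0.1 added) was 2.13, with a range from -10.57 to 8.16, and the median log2 ratio of counts (0.5 added) was -0.59. Among the 30 members with a mean count of 100 or more, the lowest TPM ratios were those of long scaRNAs: Scarna2 at 0.63, Scarna10 at 0.91, Gm22009 at 0.97, Scarna6 at 1.06 and Scarna13 at 1.08. The highest were the 215-nt Rnu3b1, Rnu3b2, Rnu3b3 and Rnu3b4 entries, each at 8.16, and Gm26447 at 4.29. The shorter Rnu3b entries held 93.8% or more of the family's TPM in each gene table and under 1% in each read-based table. Summed over all 8 Rnu3b entries, TPM was 1703, 2030 and 1408 in the gene tables and 1732, 1163 and 1057 in the read-based tables. Across members, the Spearman correlation of count with TPM was 0.82, 0.81 and 0.85 in the gene tables and 0.95, 0.97 and 0.97 in the read-based tables, over 62 to 71 genes that share a library and are not independent.

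Of the members, 3 were listed at 0 TPM in a library where they held 10 or more expected counts. Snord22, a box C/D RNA needed for processing of the ribosomal RNA precursor, held 219, 756 and 702 expected counts in replicates 1, 2 and 3 and stood at 12407, 0 and 42693 TPM. Its length of 126 nt was the longest at which the effective length was 0 in replicate 2. Read-based TPM of Snord22 was 1012, 1941 and 1990. Replicate 2 was thus the library with the highest raw count of Snord22 and the only one with no TPM for it. The posterior mean TPM, another estimate in the gene tables, was also 0 there.

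Snora26 (121 nt) held 21.98, 18.98 and 13.98 expected counts and Gm24233 (122 nt) 4, 14 and 12, and both were listed at 0 TPM in all 3 libraries. Gm22786 (122 nt) was likewise at 0 TPM throughout, with 5, 8 and 6 counts. In the read-based tables Snora26 stood at 80.2, 45.5 and 41.2 TPM and Gm24233 at 214, 117 and 123. None of the 3 had a count of 0 in any library of either set of tables. In all, 59 members reached 1 TPM in every library in the gene tables, and 67 did in the read-based tables.

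By role, the 10 scaRNAs (9 by biotype plus Scarna10) held 62.9% ± 7.08 of member counts but 7.52% ± 1.93 of member TPM. Members with a box C/D symbol numbered 14 and held 12.3% ± 2.51 of member counts and 22.1% ± 7.18 of TPM. The 16 with an H/ACA symbol held 6.06% ± 1.45 of counts and 4.20% ± 2.05 of TPM. The 31 whose symbol gives no class, nearly all predicted genes with Gm symbols, held 18.7% ± 5.90 of counts and 66.1% ± 5.47 of TPM (SD, n = 3 throughout). ScaRNAs led by count, and genes with no class in their symbol by TPM, in each library. These shares describe members only. The 14 box C/D members include 2 Rnu3a and 8 Rnu3b entries. Of 108 annotated genes with a box C/D symbol 57 reached 10 read-based counts. Their median length was 86 nt, at which the effective length was 0 in the gene tables. The C/D share of member TPM was 22.6, 14.7 and 29.1% in replicates 1, 2 and 3, and Snord22 was at 0 TPM in replicate 2. With the class read from boxes for the unnamed genes, 40 members were H/ACA, 16 C/D and 5 had no class.

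Among scaRNAs below the leading ones, Scarna13 held 586, 900 and 721 expected counts and Scarna6, in an Atg16l1 intron, 388, 618 and 550. Gm26083, inside an exon of Snhg20, held 61.7, 23.6 and 36.3, and Gm25492, in a Bud23 intron, 5, 4 and 12. The order of these genes was the same in all 3 libraries. Gm22442, in a Chd3 intron, held 12, 14 and 7 expected counts but 249, 577 and 348 read-based counts. Gm23119, of 140 nt, held 36, 27 and 24 expected counts but 296, 222 and 199 read-based counts. In the list of 9 named scaRNA genes, 4 were members (Scarna2, Scarna6, Scarna10 and Scarna13) and 9 reached 10 read-based counts. Scarna3a, Scarna3b, Scarna8, Scarna9 and Scarna17 had 0 expected counts and between 10.0 (Scarna8) and 190 (Scarna17) summed read-based counts.

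Of 20 gene entries found for the list of ribosomal RNA precursor processing RNAs 13 were members and 14 reached 10 read-based counts. Of the 13 members 10 were Rnu3a and Rnu3b entries, and the others were Snord22, Snora73a and Snora73b. Snora73b stood at 2141, 4974 and 3192 TPM and Snora73a at 1468, 5167 and 2578. Their sequences were 98.0% identical over 202 aligned bases, so the division of reads between them is uncertain. Snord118, the U8 RNA, had a mean of 1 expected count and 133 summed read-based counts, and Snord13, of 104 nt, had 0 and 64. Snord14c and Snord14d, both of 86 nt, had 0 expected counts and 151 and 185 summed read-based counts.

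The U3 genes showed how far the tables could part for near-identical entries. Rnu3a had 2 annotated entries, of 213 and 214 nt, and the longer entry was the shorter one with 1 further base at its 3′ end, as printed above. In the gene tables the shorter entry held 375, 611 and 466 expected counts and the longer 0, 195 and 54.8. In the read-based tables the shorter held 169, 177 and 181 and the longer 1349, 2638 and 2118. The split was thus turned around between the tables. Summed over both entries, Rnu3a held 375, 806 and 521 expected counts and 1519, 2815 and 2299 read-based counts.

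Rnu3b1, Rnu3b2, Rnu3b3 and Rnu3b4 were each annotated at 215 and at 216 nt, 8 entries with 2 distinct sequences, all within introns of Tex14 in the annotation. Each 215-nt entry held 206, 214 and 154 expected counts, the same for all 4. Each 216-nt entry held 13.8, 0 and 0. In the read-based tables each 215-nt entry held 4.24 counts in replicate 1 and under 1 in the others, and each 216-nt entry 464, 540 and 451. Over the 8 entries the sums were 880, 854 and 616 expected counts and 1871, 2161 and 1806 read-based counts, so only the family sum can be read. Tex14 was the host with most members by this annotation, at 8, and was itself at 1.12 CPM.

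Lists of other known snoRNAs held few members. Of the listed Snhg1 snoRNAs only Snord22 was found by symbol, and it was a member. Of 5 imprinted-cluster snoRNA genes found by symbol none was a member and none reached 10 read-based counts. The 4 Rpl13a snoRNAs Snord32a, Snord33, Snord34 and Snord35a, known from lipid stress responses, had 0 expected counts each. All 4 reached 10 read-based counts, at 248, 53.3, 81 and 55 summed over the libraries, and were 70 to 90 nt long. Of the listed Gas5 snoRNAs 3 symbols were found, no gene was a member, and of these Snord47 reached 10 read-based counts, at 124. Gm22357, of 83 nt inside an exon of Gas5 and not on that list, held 513 summed read-based counts.

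Genes for the proteins that bind and process these RNAs were detected. All 4 core genes of the C/D particle found reached 1 TPM in every library: the methyltransferase gene Fbl at 15.1 ± 2.93 TPM, Nop56 at 35.1 ± 5.91, Nop58 at 13.2 ± 0.76 and Snu13 at 5.64 ± 1.32 (SD, n = 3). Of the 4 H/ACA core genes 3 did, with the pseudouridine synthase gene Dkc1 at 11.2 ± 1.09 TPM, Gar1 at 7.22 ± 1.99 and Nhp2 at 2.77 ± 0.29, while Nop10 stood at 0.94 ± 0.21. All 15 assembly and transport genes found and all 9 end-processing and turnover genes found did so as well. The highest of these were Tgs1, which hypermethylates RNA caps, at 60.2 ± 11.2 TPM, and Zcchc7, of a nuclear RNA adenylation complex, at 70.0 ± 15.95 TPM. Levels of these long genes and of members cannot be set side by side in TPM here, given the effective lengths above.

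By position, 66 of 71 members (93.0%) lay within a gene on the same strand, against 44.7% of all 1558 annotated genes. The 66 lay in 50 host genes and 56 of them in protein-coding hosts. Of all members 41 lay wholly in introns, 15 inside an exon of at least 1 host transcript, 10 partly in exons, and 5 in no gene on that strand. Reads of an unspliced host intron and of the mature snoRNA cannot be told apart in these tables, and chromatin RNA holds unspliced RNA. The whole sequence of 24 members was contained in a transcript of another gene, so their reads could be divided between genes, and 3 overlapped a gene on the other strand.

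After Tex14, the host with most members was Eif4a2, with Gm26447 (above), Snora81 and Gm24616. Snora81 held 6.99, 14.2 and 24.2 expected counts and Gm24616 7, 5 and 9, both far below Gm26447, while Eif4a2 itself was at 340.7 CPM. Eif4a1, Atg16l1, Rcc1, Rps3, Snx5, AC121821.1 and Cct6a held 2 members each. RNAs of 1 host thus differed widely, and in Rps3 the 2 members Snord15b and Snord15a stood at 114 and 25.4 mean CPM. Across the 66 hosted members, the Spearman correlation of member with host CPM was 0.32, a description over genes that share libraries. Host CPM came from expected counts of the gene tables, and how far these include reads in host introns was not tested. The member exceeded its host in 14 cases, 4 of which were the identical 215-nt Rnu3b entries of Tex14. Scarna13 did so 129-fold (42.7 against 0.330 CPM for Snhg10), Scarna10 80.2-fold (892 against 11.1 for Ncapd2) and Snora73b 15.97-fold (72.8 against 4.56 for Rcc1). Snora73b also lies in another gene on its strand, so Rcc1 may not be the gene it is made from.

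The design allowed 1 test: whether a gene's counts spread between the 3 libraries more than genes of like abundance do. The edgeR goodness-of-fit test on rounded expected counts, adjusted by Benjamini-Hochberg over 14789 genes, called 166 of them, or 1.12%, at an adjusted p below 0.05. Of the 71 members 43 passed the filter on low counts, and 7 of the 43 were called (16.3%, against the background of 1.12%). The rule chose members on summed counts. The filter on low counts and the spread allowed at a given abundance rest on those same counts. The background covers all genes that passed the filter, at any abundance. These percentages are therefore a description of the members, not a test of them as a set. The 43 include the 4 identical 215-nt Rnu3b entries, and none of the 7 calls was made when replicate 1 was left out. The libraries carry no contrast, so a call says only that the libraries differed for that gene, and members that did not pass the filter were not tested. Over the 43 members the median SD of log2 CPM (0.5 added) was 0.34, against 0.18 over all genes tested.

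Gm22988 had the smallest p. Its normalised CPM was 485, 153 and 174 in replicates 1, 2 and 3, a 3.17-fold range, with an adjusted p of 3.27e-06 in edgeR's test. Snord15b stood at 184, 66.9 and 84.7 (adjusted p = 0.000619 in edgeR). Gm23262, of 168 nt in the gene of the translation initiation factor Eif4g2, stood at 53.6, 18.5 and 26.2 (adjusted p = 0.00182 in edgeR). These genes were high in replicate 1 and close to each other in replicates 2 and 3. Gm24119, of 246 nt in an intron of the phosphate carrier gene Slc25a3, stood at 9.20, 2.19 and 4.44 (adjusted p = 0.00815 in edgeR), and Gm25291, of 144 nt in an intron of Sec24a, at 14.1, 5.14 and 6.17 (adjusted p = 0.036 in edgeR). Gm25291 is 97.9% identical to Gm22988 over 142 bases, so reads of the 2 genes may be mixed.

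The remaining 2 called members were low in replicate 1. Scarna2 stood at 111, 309 and 264 normalised CPM (adjusted p = 0.00172 in edgeR) and Snord22 at 15.3, 38.5 and 40.5 (adjusted p = 0.00674 in edgeR). All 7 called members therefore had replicate 1 at one end of their range. Replicate 1 had the largest RNA input by its label, at 1 ug, the fewest counts, and the largest effective lengths in the gene tables, and the part of these in the spread was not tested. Among the 43 tested members 24 were highest in replicate 1 (55.8%), against 38.1% of all genes tested. Those 24 include the 4 identical 215-nt Rnu3b entries. They also include Gm22988, Gm25291, Gm24727 and Gm25117, which are similar in sequence, so the members are not independent.

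**Figure D5:**
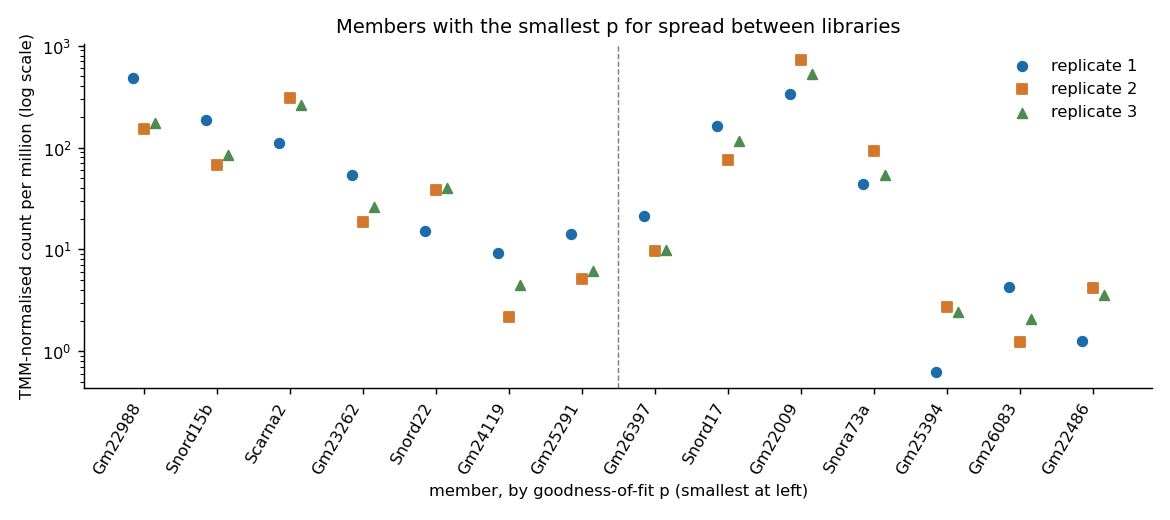
TMM-normalised CPM (y axis, log scale) in the 3 libraries for the 14 tested members with the smallest goodness-of-fit p, smallest at left. The 7 members left of the dashed line were called at an adjusted p below 0.05 in edgeR's test, and in each of them replicate 1 is the highest or the lowest library.

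Without replicate 1 the 1 member called was Rnu3a (the longer entry), whose entries are divided as described above. Without replicate 2 the calls were Gm22988 and Snord22, and without replicate 3 they were the same 7 except Gm25291. In the read-based counts 4 members were called of 61 tested (6.56%, against 1.15% of 23769 genes): Gm22988, Snord15b, Snord22 and Gm23262. Scarna2 had an adjusted p of 0.0564, Gm24119 of 0.266 and Gm25291 of 0.636 in edgeR's test there.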

How the data were processed

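Total RNA sequencing of chromatin RNA gave 3 libraries of 1 group, per the labels. The authors deposited, per library, gene tables with expected counts and TPM in the columns RSEM writes, and transcript tables with estimated counts and TPM in the columns kallisto writes, on mm10 with GENCODE M21 per the accompanying notes. The sources used here do not give the aligner, quantifiers, versions or strand handling, so reads of antisense partners may be mixed. Entries for tRNA, spike-ins and phiX, 0.283 to 1.39% of counts, were left out.

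Each member had 1 transcript, so transcript and gene values correspond, and the annotated lengths agreed in all 3 libraries. Annotation and sequences came from GENCODE M21. A member lay in a host when a gene on its strand contained it whole. Where several genes did, the one with the highest summed expected count was taken. Spread was tested with edgeR 4.0.16 (rounded expected counts, TMM, filterByExpr, intercept-only fit, trended dispersion, gof) on all 55536 genes before filtering. The test was also run on counts simulated at the fitted trend, which cannot show how often genes off that trend are called. DESeq2 1.42.0, other filters, tables, pseudocounts and libraries left out served as alternatives. The p-values measure spread between these libraries only.

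Members, lists and tests were chosen with earlier results of these data known. Named members were those with the highest counts (10) or TPM (6), the lowest and highest TPM ratio between tables (5 each), 0 TPM despite counts, a call for spread, a scaRNA class, an extreme length (3 each) or a place next to the minimum, the leading hosts' members and the leading members of the lists. Other genes were chosen after their values were seen.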

Additional observations from a re-analysis of the deposited data

How the results depend on the processing

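The count of members called for spread between libraries was 7 and stayed at 7 with DESeq2 size factors. It was 11 with no filter on low counts, 6 of them shared with the 7 and the other 5 being U3 entries, 4 with read-based counts, and 3 by DESeq2 dispersion outliers. It ranged from 1 to 6 with 1 library left out, and among the 7 it was 5 for members with no similar snoRNA gene (90% identity over 90% of the length). That check covered snoRNA genes only. Snord15b and Snord22 were among the 5, although the whole sequence of each is contained in a transcript of another gene. The number of members was 39 at a minimum of 100 counts and 368 by read-based counts, and 60 to 65 with 1 library left out. Members at 0 TPM with counts numbered 1 at a minimum of 100 and 0 in the read-based tables. The members' share of TPM was 27.3% in the gene tables, 4.46% in the read-based tables, 0.296% in expected counts, 25.3% as posterior mean TPM and 3.06% per annotated length, the last 2 chosen after seeing the data. It was 26.8 to 28.1% with 1 library left out. The median log2 TPM ratio was 2.71 for members with a mean count of 30 or more. Box C/D genes held 16.4% of member counts in the read-based tables. No median ratio changed sign. No paired analysis was possible because there was 1 group.

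For members under 150 nt TPM rests on effective lengths of a few positions in the gene tables, and which table is nearer to the amount of RNA was not tested. Of the members 28 did not pass the filter on low counts and were not tested for spread, among them the longer Rnu3a entry, which had counts in 2 of 3 libraries.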

Other observations

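Short snoRNAs of ribosomal protein and snoRNP genes reached 10 counts in the read-based tables but not in the gene tables. Rpl5 hosts 3 annotated snoRNA genes, all with 10 or more summed read-based counts, and none was a member. The same held for the 3 of Rpl17 and the 3 of Wdr43, a gene of early ribosome assembly. Of 5 snoRNA genes in Nop56 and 4 in Nop58, which encode core proteins of the C/D particle, 3 each reached 10 read-based counts and none was a member. Snord104, of 70 nt and in no gene on its strand, held 80, 100 and 101 read-based counts in replicates 1, 2 and 3 and 0 in each gene table. Snord83b, of 94 nt in an intron of Rpl3, held 51, 207 and 145 read-based counts and likewise 0 in each gene table.

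The median log2 ratio of gene-table over read-based counts was -0.36 for the 15 members inside a host exon, -0.72 for the 41 in introns and -3.02 for the 5 in no host, of which 2 were the Rnu3a entries. For TPM the median log2 ratios were 3.15, 1.91 and 0.63. Gm24336, of 146 nt in an intron of Cwf19l1, held 15, 8 and 5 expected counts but 352, 553 and 470 read-based counts.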
